A study of Homo sapiens with 16 samples.

Results

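Replication-dependent histone genes were taken as the protein-coding genes named H1-1 to H1-6 or with symbols beginning H2AC, H2BC, H3C or H4C, and all 70 such genes were found among the 60666 genes of the tables. They comprised 6 H1, 17 H2A, 19 H2B, 13 H3 and 15 H4 genes. Total RNA without its ribosomal fraction was sequenced from U2OS, an established human bone tumour line that the labels call a sarcoma line. All cells grew in puromycin and carried either the empty plko.puro vector, a short hairpin RNA against the lipid kinase gene PIP4K2A, one against PIP4K2B, or both hairpins as stable knockdowns. Each of these 4 genotypes was left untreated or irradiated with UV-C at 30 J/m2 and collected 6 h later, with 2 libraries per group. The labels do not say whether a line is a clone or a pool, or whether the 2 libraries of a group are separate cultures. The p-values therefore cover only the variation seen between libraries, which may be technical.

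These genes supply the core and linker histones that package new DNA in S phase. Their transcripts usually end in a conserved stem-loop instead of a poly(A) tail. The stem-loop is bound by SLBP, and NPAT drives transcription of the genes in nuclear histone locus bodies. The mRNAs are degraded when DNA synthesis stops, whereas replication-independent variants such as H3.3 and H2A.Z come from polyadenylated mRNAs made throughout the cell cycle. Depletion of ribosomal RNA, unlike poly(A) selection, keeps transcripts without a tail.

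One untreated library, labelled replicate 1 of the empty vector, differed from all others and was set aside. It held 1.28 M expected counts against 28.0 to 39.9 M in the other 15, and 14.6% of its counts came from mitochondrial genes against 2.20 to 3.43%. The histone genes summed to 883 CPM (counts scaled to a common library total) in it and to 8919 CPM in replicate 2 of the same group, so untreated empty-vector cells are represented by 1 library whose spread is assumed to be that of the other groups. PIP4K2A lay at 7.48 to 22.9 CPM in the 8 libraries with its hairpin and at 43.2 to 62.9 CPM in the other 7, and PIP4K2B at 11.4 to 26.6 against 65.1 to 107 CPM. Of the bone lineage genes COL1A1, SPARC and RUNX2 were expressed and IBSP stayed under 0.1 CPM, with 5 of 9 such genes reaching 1 CPM. Of 8 blood cell markers 2 reached 1 CPM in any library, and CD3E stayed at or under 0.0313 CPM. Of 8 epithelial markers 7 did (KRT19 stayed at or under 0.110 CPM), and their summed level was 275 to 501 CPM untreated and 331 to 945 CPM after UV. The part of these markers in the results was not tested.

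The stem-loop was searched for in the GENCODE 29 transcripts as a 16-base pattern, which 103 of all 206694 transcripts (0.0498%) held. It was present in a transcript of 30 of the 70 histone genes and was not found in the models of the other 40, which says only that these letters are not in them. The 5 forms found are shown in the sense direction of the GRCh38 transcripts, with the stem-loop in capitals, because they show how this RNA element differs between the classes. The first was found in 17 H2A, H2B and H3 genes, the second in 4 H2B and H3 genes, the third in H2AC11, the fourth in 5 H4 genes and the fifth in 3 H4 genes.
H2BC21: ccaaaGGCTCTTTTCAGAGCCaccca
H2BC5: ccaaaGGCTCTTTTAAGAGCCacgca
H2AC11: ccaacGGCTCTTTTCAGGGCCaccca
H4C2: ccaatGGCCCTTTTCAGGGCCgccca
H4C14: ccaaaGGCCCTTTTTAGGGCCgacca

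Promoters were read from RefSeq (GRCh38.p14), which held 64 of the 70 genes among 27305 promoters of 300 bases (250 before and 50 after the start). The CCAAT box, the octamer, the TATA box and the H1 box were searched on both strands. The CCAAT box (CCAAT) was found in every H1, H2A, H2B and H3 promoter present, in 3 of 13 H4 promoters and in 35.7% of all promoters. The octamer ATTTGCAT was found in 11 of 16 H2A and 14 of 18 H2B promoters, in 1 H3 promoter, in no H1 or H4 promoter and in 1.80% of all. TATAAA was found in 42 of the 64 and in 11.95% of all. The H1 box AAACACA was found in 6 of 6 H1 promoters, 9 of the 64 and 5.76% of all. A match describes the letters only and shows no bound factor. The 250 bases before the start are shown for H2BC11, the H2B gene with the lowest log2 change after UV in empty-vector cells, and for H4C4 and H2BC8, which with H2AC8 differed between the lines in untreated cells. Capitals mark the CCAAT box, the octamer and the TATA box, which overlap on both strands at 1 place in H2BC11. H2BC11 (chr6:27132796-27133045, minus) and H2BC8 (chr6:26216689-26216938, minus) held the octamer 47 and 48 bases before the start, and H4C4 (chr6:26189113-26189362, minus) held a TATA box 29 bases before it.
H2BC11: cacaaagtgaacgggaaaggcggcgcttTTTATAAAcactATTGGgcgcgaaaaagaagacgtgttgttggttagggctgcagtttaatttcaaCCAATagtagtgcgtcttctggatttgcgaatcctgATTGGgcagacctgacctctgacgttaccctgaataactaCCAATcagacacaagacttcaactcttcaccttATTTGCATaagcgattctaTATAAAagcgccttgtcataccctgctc
H2BC8: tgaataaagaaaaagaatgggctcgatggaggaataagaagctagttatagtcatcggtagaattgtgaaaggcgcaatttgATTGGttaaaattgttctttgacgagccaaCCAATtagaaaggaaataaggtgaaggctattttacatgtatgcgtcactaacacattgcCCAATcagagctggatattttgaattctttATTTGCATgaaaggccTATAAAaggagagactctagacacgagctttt
H4C4: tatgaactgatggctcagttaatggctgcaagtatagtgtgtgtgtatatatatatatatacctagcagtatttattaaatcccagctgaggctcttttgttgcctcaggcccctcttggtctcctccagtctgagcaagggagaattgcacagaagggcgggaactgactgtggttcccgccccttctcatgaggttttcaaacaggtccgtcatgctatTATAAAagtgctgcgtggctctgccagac

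Histone RNA in untreated cells came mainly from a part of the genes. Of the 70 genes 47 passed the filter on low counts and 23 did not. Under 1 CPM in all 15 libraries were 24 genes, of which 7 had no count in any. Per length, in TPM (transcripts scaled per length and to a common total), 29 genes exceeded a mean of 100 over the 7 untreated libraries. The 5 highest were H3C2, H2BC12, H4C14, H1-2 and H2BC4 with 1325, 1283, 1144, 871 and 684 TPM, which together made up 40.6% of the histone TPM. H4C14 and H2BC12 share most of their sequence with H4C15 and H2BC12L, so their levels and ranks depend on how reads were assigned. Levels within a class were uneven: per length, H1-2 led the linker histones over H1-4 (227 TPM) and H1-1 (107 TPM), and H3C2 led H3 over H3C4 (558 TPM) and H3C1 (506 TPM). Not per length, the copies H3C14 and H3C15 together exceeded H3C2, with 701 to 1186 CPM against 459 to 644 CPM in the 7 untreated libraries. Their transcript models have 1656 bases and that of H3C2 has 411, so the H3 order depends on the measure.

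The silent genes lay in runs along the chromosomes. On chromosome 6, which carries 55 of the genes, H1-3, H4C6, H4C7, H3C7, H2BC9, H3C8 and H2BC10 formed 1 silent run of 39.1 kb (26234268 to 26273356, GRCh38), with expressed H3C6 before it and expressed H4C8 after it. A second run of 7 genes (H2AC16, H1-5, H3C11, H4C13, H3C12, H2AC17 and H2BC17, 27865355 to 27893843) closed the cluster that begins with H2BC13. All 5 genes of the cluster from H2BC11 to H2AC12 were expressed. On chromosome 1, H2BC18 and H3C13 were silent next to 9 genes that reached 1 CPM in a library. Of these 9, H2AC18 had an untreated median of 0.00714 CPM and no 50-base stretch distinct from H2AC19. H3C14 and H3C15 cannot be told apart either, so which of these copies is expressed is uncertain. H3C2 and H3C3 were placed by RefSeq, since their gene identifiers were not in GENCODE 29. The plot of levels by gene order shows these runs as grey bands.

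**Figure D1:**
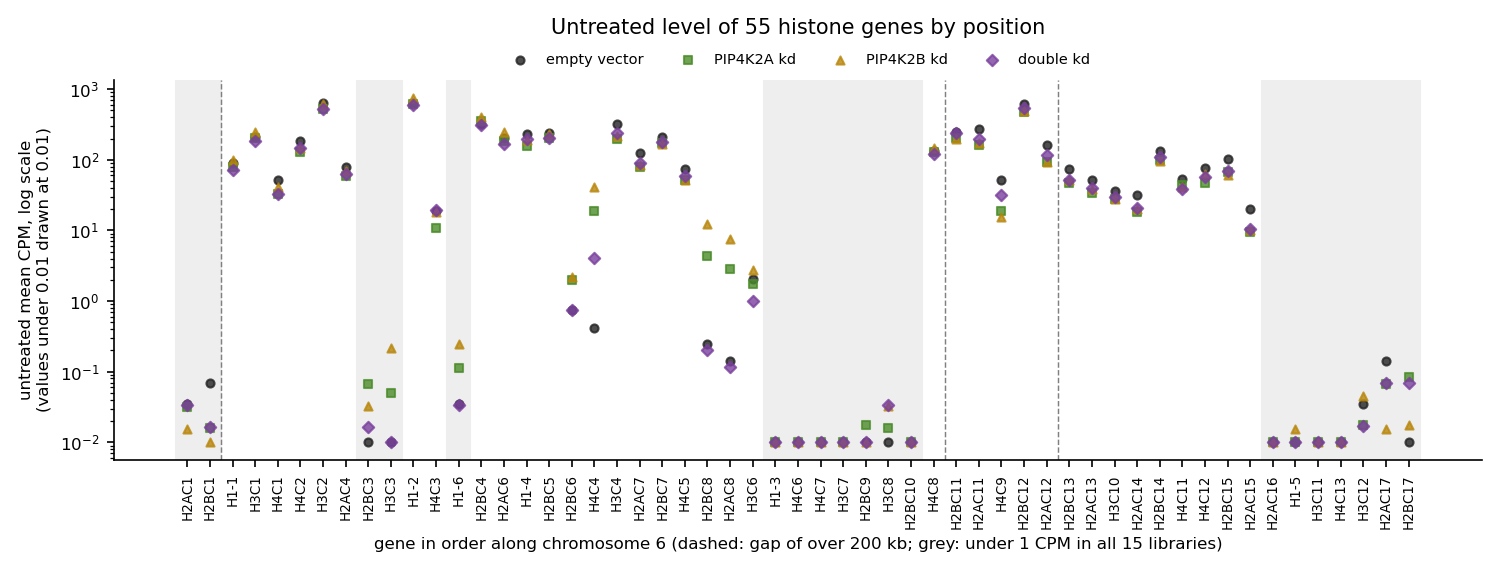
Untreated mean CPM (log axis) of the 55 chromosome 6 histone genes in gene order, with 1 symbol per genotype (1 empty-vector library, otherwise 2); grey bands mark genes under 1 CPM in all 15 libraries and dashed lines gaps of over 200 kb. The 2 longest silent runs hold 7 genes each, and the symbols of H4C4 run from 0.419 CPM in empty-vector cells to 41.4 CPM in the PIP4K2B knockdown.

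After UV, histone RNA was lower in every class and every genotype, and most single genes fell. The 70 genes together summed to 8919 CPM in the untreated empty-vector library and to 1451 and 1516 CPM after UV, 6.01-fold less. PIP4K2A knockdown cells had 6258 and 7768 CPM untreated and 1887 and 1829 after UV (3.77-fold less). PIP4K2B knockdown cells had 7242 and 7373 CPM against 2020 and 2017 (3.62-fold less). Double knockdown cells had 7098 and 7991 CPM against 1616 and 1636 (4.64-fold less). These folds are of CPM without TMM factors, and with the TMM factors used in the tests they were smaller. The 8 UV libraries lay below all 7 untreated ones. In bulk RNA, fewer cells of a type and less RNA per cell cannot be told apart. Per class, the sums in empty-vector cells went from 964 to 163 ± 17.7 CPM for H1 (SD, n = 2 after UV), from 1696 to 236 ± 11.5 for H2A, from 2398 to 459 ± 26.8 for H2B, from 2406 to 316 ± 16.9 for H3 and from 1455 to 309 ± 3.98 for H4. In CPM the fold was largest for H3 in all 4 genotypes (7.61, 6.10, 5.52 and 5.69 in empty-vector, PIP4K2A, PIP4K2B and double knockdown cells). The smallest was that of H4 in empty-vector cells (4.70) and the double knockdown (3.61), of H1 in the PIP4K2A knockdown (2.35) and of H2B in the PIP4K2B knockdown (3.08), and as TPM in empty-vector cells it was that of H2B. Scaling to ribosomal protein genes, which moved the median of all genes to between -0.90 and -0.70 on the log2 scale, gave larger differences (log2 -3.06 over all 70 genes in empty-vector cells), and putting the set-aside library back gave smaller ones (-1.72 in place of -2.59).

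**Figure D2:**
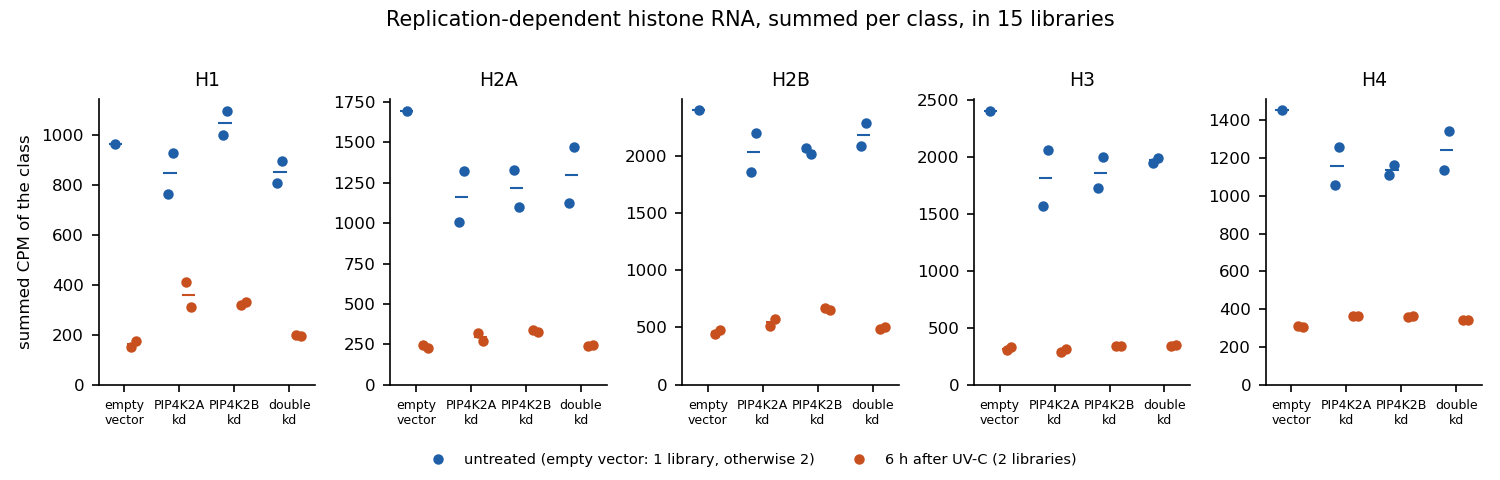
Summed CPM of each histone class (linear axis from 0) in 15 libraries by genotype; points are libraries and short lines are means. In every class and genotype the UV libraries lie below the untreated ones, with H3 at 284 to 351 CPM after UV against 1570 to 2406 untreated.

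Single genes were tested with edgeR over all 22597 genes that passed the filter. In empty-vector cells 38 of 47 histone genes fell and 0 rose, where 8.67% of all genes rose and 9.82% fell, and their median log2 change was -2.33 against 0.02 for all genes. With PIP4K2A knocked down 42 fell and 0 rose (14% and 16.6% of all genes, median -1.75). With PIP4K2B knocked down 42 fell and 0 rose (15.4% and 17.5%, median -1.79). With both knocked down 41 fell and 0 rose (16.1% and 19.1%, median -1.95). Of the 47 genes 36 fell in all 4 genotypes. Every UV library lay below every untreated library for 38 of the 47, as for 16.8% of all genes tested. With the set-aside library put back, 6, 3, 3 and 3 genes were called in the 4 genotypes, all falls.

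Among linker histones, H1-2 (chr6:26055787-26056428, minus) measured 642 CPM in the untreated empty-vector library and 112 and 130 CPM after UV (log2 change -2.15, SE 0.16, edgeR adjusted p = 2.8e-06). The PIP4K2A knockdown had 559 and 661 CPM against 337 and 265 after UV, the PIP4K2B knockdown 709 and 810 against 271 and 281, and the double knockdown 569 and 604 against 154 and 148. The UV libraries were low in all 4 genotypes without overlap, and the log2 change in the PIP4K2A knockdown was -0.76. H1-4 went from 232 to 24.3 and 29.3 CPM in empty-vector cells (log2 change -2.86), and H1-1 from 89.6 to 14.1 and 15.8 CPM (-2.33). H1-6, the testis linker histone, stayed under 0.4 CPM in these 15 libraries and was not called in any genotype.

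H2A genes had a median log2 change of -2.84 in empty-vector cells, with 11 of 13 called. H2AC6 (chr6:26124145-26139116, plus) had the smallest change of the H2A genes called, from 201 to 46.2 and 47.6 CPM (log2 change -1.84). The PIP4K2A knockdown had 169 and 206 CPM untreated and 83.4 and 88.5 after UV, and the PIP4K2B knockdown 240 and 257 against 122 and 121. In the double knockdown H2AC6 measured 159 and 172 against 49.5 and 50.005 CPM. The UV libraries were low in all 4 genotypes without overlap. H2AC4 went from 79.5 to 5.82 and 5.87 CPM in empty-vector cells, H2AC20 from 161 to 24.6 and 21.5, and H2AC12 from 164 to 14.4 and 16.04. All 3 genes fell in every genotype. H2AC15 gave the largest value, -5.78, at low level (20.3 CPM untreated, 0.411 and 0.202 after UV). H2AC18 and H2AC19 share nearly all their sequence so reads could be assigned to either. Summed, the pair went from 463 to 54.3 and 46.996 CPM in empty-vector cells (log2 change -2.94, SE 0.23, edgeR adjusted p = 5.4e-06) and fell in all 4 genotypes.

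H2B genes fell in 9 of 11 cases in empty-vector cells (median -2.31). H2BC11 (chr6:27125897-27132750, minus), whose promoter is printed above, went from 248.9 to 15.8 and 18.03 CPM (log2 change -3.63, SE 0.14, edgeR adjusted p = 4.2e-08). The PIP4K2A knockdown went from 184 and 216 to 28.4 and 26.6 CPM, the PIP4K2B knockdown from 200.3 and 199.5 to 29.6 and 31.7, and the double knockdown from 229 and 251 to 23.8 and 20.9. H2BC12 (chr6:27146418-27146798, minus), the highest H2B gene and a member of the same cluster, fell from 616 to 164 and 191 CPM in empty-vector cells (log2 change -1.54). In the PIP4K2B knockdown H2BC12 measured 491 and 482 CPM untreated and 283 and 275 after UV. The fitted log2 change, which unlike CPM uses TMM factors, was -0.50. H2BC4 went from 326 to 96.96 and 92.8 CPM (-1.52), and H2BC5 from 240 to 39.9 and 45.7 CPM (-2.23). H2BC11 and H2BC12, in 1 cluster and 1 class, thus had log2 changes of -3.63 and -1.54; the difference between genes was not tested.

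All 7 H3 genes tested fell in all 4 genotypes, with a median of -2.69 in empty-vector cells. H3C2 (RefSeq chr6:26031589-26032099) went from 644 to 79.0 and 82.5 CPM in empty-vector cells (log2 change -2.74, SE 0.14, edgeR adjusted p = 2.3e-07). The PIP4K2A knockdown went from 459 and 590 to 103 and 96.4 CPM, the PIP4K2B knockdown from 591 and 635 to 104 and 103, and the double knockdown from 489 and 554 to 85.9 and 90.2. The UV libraries were low without overlap in every genotype. H3C4 went from 325 to 27.6 and 29.8 CPM in empty-vector cells (-3.25) and H3C1 from 213 to 17.5 and 22.1 (-3.17). H3C14 and H3C15 are copies with no distinct 50-base stretch and received equal counts in 14 of 15 libraries. Summed, they went from 1186 to 174 and 189 CPM (log2 change -2.45) and fell in all 4 genotypes.

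H4 genes had the smallest median in empty-vector cells, -1.53, with 8 of 12 called. H4C14 (chr1:149832659-149839767, plus), the highest H4 gene, went from 784 to 168 and 165 CPM in empty-vector cells (log2 change -1.98, SE 0.10, edgeR adjusted p = 2.2e-07). The PIP4K2A knockdown went from 610 and 649 to 198 and 203 CPM, the PIP4K2B knockdown from 517 and 522 to 164 and 156, and the double knockdown from 659 and 741 to 182 and 183. The groups did not overlap. H4C2 fell further, from 183 to 16.3 and 14.4 CPM in empty-vector cells (-3.32), and H4C8 less, from 133 to 30.1 and 34.5 CPM (-1.78). H4C3 was not called in any genotype (18.97 CPM untreated, 11.2 and 8.94 after UV in empty-vector cells, log2 change -0.66). H4C16, which lies alone on chromosome 12, had 6.85 CPM against 4.21 and 4.26 in empty-vector cells (-0.44, adjusted p = 0.13) and fell in the 3 knockdowns. Summed, H4C14 and H4C15 changed by -1.91 and H4C11 and H4C12 by -2.04 in empty-vector cells, and both sums fell in all 4 genotypes, also where H4C12 or H4C15 alone was not called.

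**Figure D3:**
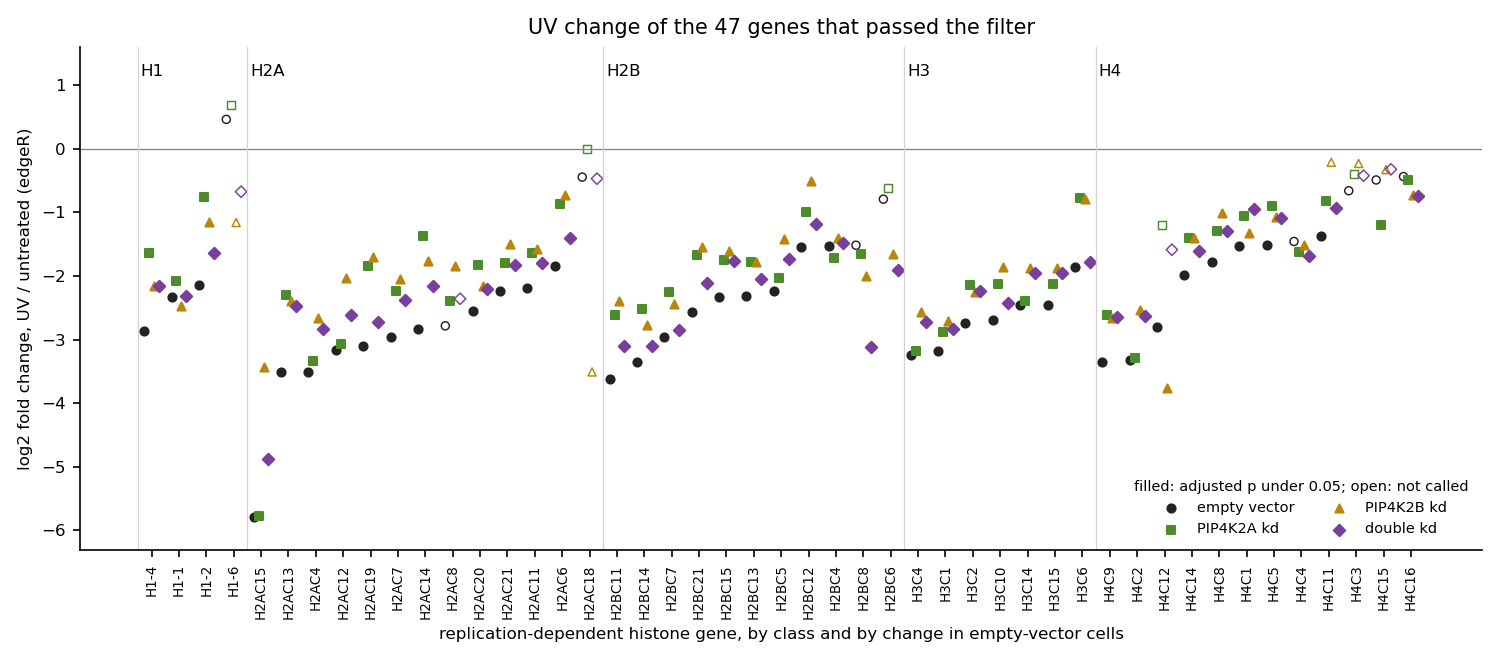
Log2 fold change of UV over untreated cells (edgeR) for the 47 histone genes tested, by class and ordered by the change in empty-vector cells, with 1 symbol per genotype; filled symbols passed an adjusted p of 0.05. Values run from -5.78 for H2AC15 to 0.68 for H1-6, and all filled symbols lie below 0.

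Whether the UV change differed between genotypes was tested for each histone gene with edgeR, and no difference was called, though other fits called some. The difference of UV responses from empty-vector cells lay above 0 for 42 of 47 genes with PIP4K2A knocked down (median 0.52), 39 with PIP4K2B (0.68) and 41 with both (0.43). The medians over all genes were 0.0066, -0.0068 and 0.011, and all 3 comparisons share the single untreated empty-vector library. With edgeR 0 genes were called in each, where 0.00885%, 0.0% and 0.00885% of all genes were, and the lowest adjusted p was 0.12, 0.061 and 0.90. At an unadjusted p under 0.05 there were 19, 23 and 10 genes, and DESeq2 called 5, 6 and 0. Leaving out PIP4K2A UV replicate 2 gave 14 calls for that knockdown, and fitting only the groups compared gave 13 for the PIP4K2B knockdown. With no filter 13, 22 and 4 differences were called. The shares of all genes above 0, at an unadjusted p under 0.05 or called in these other fits are not reported here. Near-identical copies are also counted singly, so these counts are not read as a result about the histone genes.

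After UV, the share of histone genes called higher than in empty-vector cells was not alike in the knockdowns. It was 17, 31.9 and 6.38% in the PIP4K2A, PIP4K2B and double knockdowns, where 11.3, 10.7 and 8.5% of all genes were higher. In the PIP4K2A knockdown 8 of 47 genes were higher and 3 lower, against 11.3% and 9.01% of all genes. In the PIP4K2B knockdown 15 were higher and 1 lower (10.7% and 8.3% of all), and in the double knockdown 3 and 0 (8.5% and 6.86%). Under scaling to ribosomal protein genes these counts were 18 and 0, 14 and 1, and 6 and 0. Fitting only the groups compared called 4, 27 and 15 genes and no filter 25, 29 and 11, so the order of the knockdowns by calls depended on the fit. The shares of all genes called in these alternative fits are not reported here, so their counts are not read as a histone result. H1-2 was higher by a log2 change of 1.27 in the PIP4K2A and 1.26 in the PIP4K2B knockdown (edgeR adjusted p = 5.3e-05 and 4.3e-05), and H2AC6 by 0.83 and 1.45 (0.00017 and 1.9e-06). H2BC11 and H2BC21 were higher in all 3 knockdowns, H2BC11 by 0.66, 0.94 and 0.45. With the set-aside library in the fit H1-2 and H2AC6 were not called in either knockdown, with log2 changes of 1.30 and 1.27, and 0.86 and 1.46. Without PIP4K2A UV replicate 2 the PIP4K2A comparison had 20 calls, and without empty-vector UV replicate 2 it had 7.

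The number of histone genes called between untreated genotypes depended on the fit. With PIP4K2A knocked down 3 were higher and 4 lower than in empty-vector cells (3.71% and 4.13% of all genes), with PIP4K2B 4 and 4 (5.26% and 4.99%), and with both 1 and 2 (3.24% and 2.96%). Under ribosomal protein scaling the splits were 5 and 1, 6 and 3, and 1 and 0. Fitting only the groups compared called 22, 33 and 21 genes, most of them lower in the knockdown (17, 25 and 20), and with no filter 27, 24 and 14 were called. DESeq2 called 14 for PIP4K2A. The shares of all genes called in these alternative fits are not reported here. Their counts are therefore not read as a difference of the histone genes. Without PIP4K2A untreated replicate 2 the first comparison had 14 calls, and without double knockdown untreated replicate 1 the third had 1. H4C9 was lower in both single knockdowns (51.7 CPM in empty-vector cells, 18.1 and 20.1 in the PIP4K2A and 17.8 and 13.5 in the PIP4K2B knockdown, log2 changes -1.47 and -1.70), and 26.1 and 37.0 CPM in the double. The set-aside library had 33.6 CPM, and with it in the fit neither call held.

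The largest differences between the lines were at H4C4, H2BC8 and H2AC8 on chromosome 6, between H2BC6 and H3C6 in the order of genes. H4C4 (26188765 to 26189076, minus) had 0.419 CPM in empty-vector cells, 16.4 and 20.9 with PIP4K2A knocked down, 38.4 and 44.3 with PIP4K2B and 3.93 and 4.10 with both. This is a log2 change of 5.42, 6.64 and 3.22 (edgeR adjusted p = 3.0e-06, 2.7e-07 and 7.5e-05), all higher. H2BC8 and H2AC8, a head-to-head H2B and H2A pair, had 0.245 and 0.140 CPM in empty-vector cells, from 7 and 4 counts (exact Poisson 95% intervals 0.0983 to 0.504 and 0.0381 to 0.358 CPM, counting error only). H2BC8 had 3.86 and 4.89 CPM with PIP4K2A knocked down, 12.02 and 12.2 with PIP4K2B, and 0.231 and 0.172 with both. H2AC8 had 2.07 and 3.68, 6.80 and 8.44, and 0.132 and 0.103 CPM. Both genes of the pair were high in the single knockdowns, and in the double knockdown their values lay within the empty-vector intervals. They passed the filter on low counts only through the single knockdown libraries, where they were high. Their calls and log2 changes are therefore no independent support for a difference between the lines. The double knockdown was lower than the PIP4K2A knockdown by log2 changes of -4.39 for H2BC8 and -4.54 for H2AC8, and than the PIP4K2B knockdown by -5.93 and -6.01. The difference for H4C4 was -2.20 and -3.42. All 3 genes had 0 counts in the set-aside library. Over all histone genes the double knockdown had 2 higher and 4 lower than the PIP4K2A knockdown (3.53% and 3.57% of all genes), 4 higher and 8 lower than the PIP4K2B knockdown (7.32% and 8.06%), and the PIP4K2B had 4 higher and 0 lower than the PIP4K2A knockdown (1.45% and 1.71%). Under ribosomal protein scaling these were 0 and 4, 6 and 7, and 3 and 0. The first count was 3 without PIP4K2A untreated replicate 1 or double knockdown untreated replicate 2, and the last was 2 without PIP4K2A untreated replicate 1 and 1 without either PIP4K2B untreated library.

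H4C4 and H2BC8 were called as falls after UV in all 3 knockdowns and H2AC8 in the single ones. H2BC8 was barely detected in the double knockdown. Its level there was 0.231 and 0.172 CPM without UV, and UV libraries held 0.031 and 0.0 CPM, so this call rests on very few counts. The falls of H2BC8 and H2AC8 in the single knockdowns were measured in libraries through which both genes passed the filter. These falls are therefore not read as independent support. H4C4 changed by -1.62, -1.51 and -1.68 in the PIP4K2A, PIP4K2B and double knockdowns, and the line order stayed the same after UV (5.63 and 4.57, 11.3 and 12.1, and 0.960 and 1.03 CPM, against 0.125 and 0.126 in empty-vector cells). The non-histone gene HFE, which lies between H1-2 and H4C3 on the same chromosome and codes for a regulator of iron uptake, was singled out after its values were seen, as 1 of 3 non-histone neighbours examined. It had 0.349 CPM in empty-vector cells, 2.07 and 1.82 in the PIP4K2A, 1.97 and 2.08 in the PIP4K2B and 0.298 and 0.275 in the double knockdown (log2 changes 2.43, 2.55 and -0.31, the first 2 called), and 21.9 CPM in the set-aside library. The other neighbours did not share this: TRIM38 was not called in any of these comparisons (log2 changes 0.13, 0.32 and 0.14), and BTN3A2 was lower in the PIP4K2A knockdown (-0.70) and not called in the others (-0.25 and -0.06). H3C4, between H4C4 and H2BC8, measured 325, then 150 and 243, 189 and 241, and 242 and 237 CPM in the same genotypes and was not called in any untreated comparison.

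**Figure D4:**
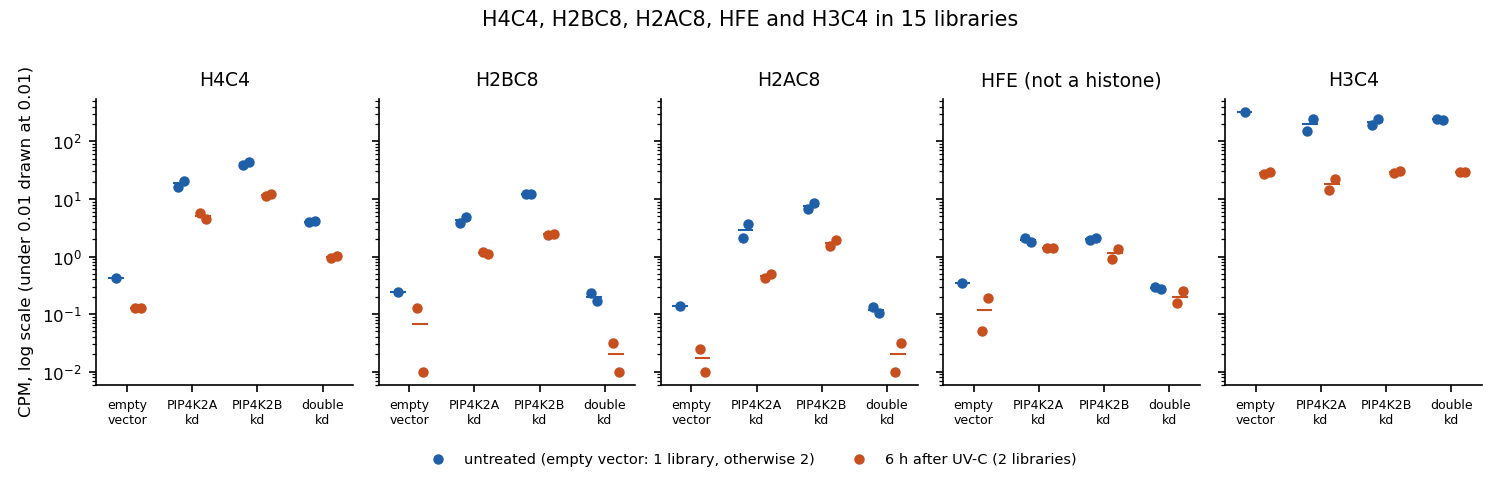
CPM (log axis) of H4C4, H2BC8, H2AC8, HFE and H3C4 in 15 libraries by genotype; points are libraries, lines means, values under 0.01 are drawn at 0.01. H4C4, H2BC8, H2AC8 and HFE are higher in both single knockdowns than in empty-vector cells, and H3C4 lies at 150 to 325 CPM in the untreated libraries.

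The isoform-weighted transcript length, which the tables give for each gene and library, was longer after UV for 6 of 9 histone genes tested with limma and shorter for 0, where 7.81% of 11543 genes were longer and 6.89% shorter. H2BC11 went from 486 to 500.2 bases in the 7 untreated libraries to 580 to 644 in the 8 UV libraries (log2 change 0.30, SE 0.01, limma adjusted p = 1.2e-05). H4C14 went from 592 to 624 bases to 621 to 724 (0.15), H2AC6 from 555 to 720 bases to 704 to 1128 (0.36), H4C8 from 419 to 485 bases to 445 to 645 (0.24), and H2BC15 from 972 to 1038 to 1082 to 1311 (0.21). H4C14 shares nearly all its sequence with H4C15, whose length change was not called, so the H4C14 length may depend on how reads were assigned. H2BC5 has an isoform of 496 bases that holds the stem-loop printed above and one of 789 bases that does not. Its lengths correspond to 1.96 to 3.79% of the longer isoform untreated and 5.04 to 11.5% after UV. For H2BC4, with isoforms of 571 and 659 bases, the same figure was 0.318 to 2.38% and 0.898 to 9.97%, and the change was not called. The shares are of totals that fell, and with the set-aside library in the fit no histone gene was called.

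Replication-independent histone genes did not share the fall, apart from CENPA. Of 11 tested, H3-3A and H3-3B (both coding for H3.3) and H2AZ1 and H2AZ2 (H2A.Z) rose in all 4 genotypes, by log2 changes of 0.38 to 0.89, though under ribosomal protein scaling none of their 16 values was a called rise, 15 were below 0 and 3 were called falls. The centromere histone CENPA fell in all 4 (-0.91 to -0.61). In all, 4, 5, 8 and 7 rose and 1 fell in each. Of all genes 8.67, 16.6, 17.5 and 19.1% rose and 9.82, 14, 15.4 and 16.1% fell. A ratio within a library does not depend on scaling. The 13 replication-dependent H3 genes summed to 3262 TPM in the untreated empty-vector library against 448 TPM for H3-3A with H3-3B, a ratio of 7.28, and after UV to 268 and 297 TPM against 508 and 490. The ratio was 5.19 to 7.28 in the 7 untreated and 0.528 to 0.616 in the 8 UV libraries, and 0.856 in the set-aside untreated library.

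**Figure D5:**
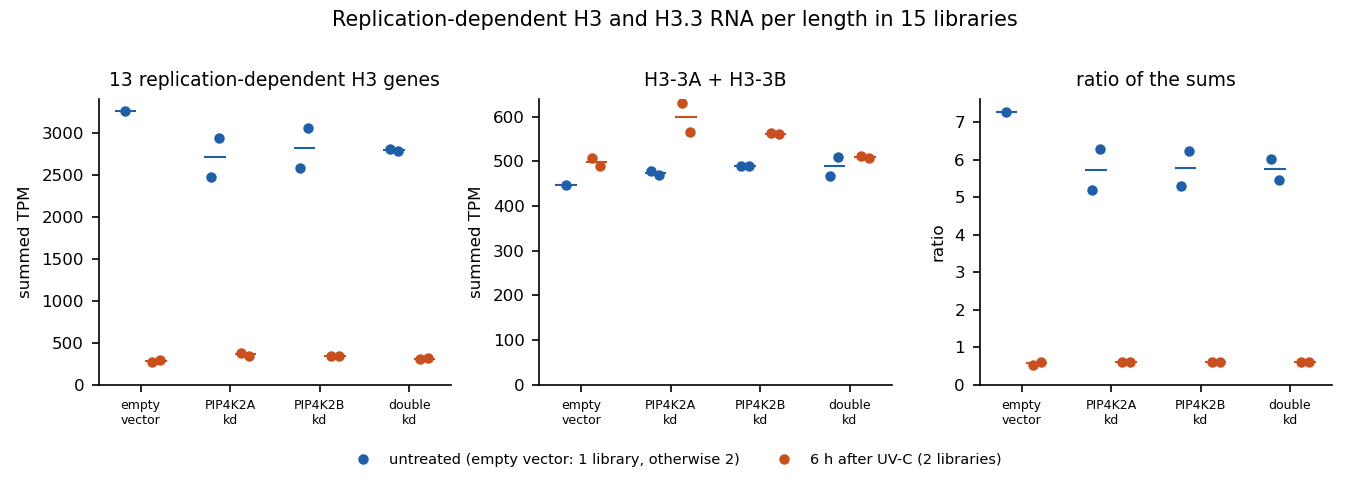
Summed TPM of the 13 replication-dependent H3 genes, of H3-3A with H3-3B, and their ratio (axes from 0) in 15 libraries by genotype; points are libraries, lines means. The ratio lies above 5 in untreated and below 1 in UV libraries of every genotype.

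Among 25 genes for transcription, 3′ processing and decay of histone mRNA, SLBP, the coactivator NPAT, HINFP (which binds H4 promoters), the U7 snRNP protein LSM11, ZNF473 and CRAMP1 fell in all 4 genotypes, and MIF4GD, a partner of SLBP, rose. SLBP measured 42.0 CPM untreated and 20.5 and 19.9 after UV in empty-vector cells (log2 change -0.80), and -0.63, -0.995 and -0.83 in the PIP4K2A, PIP4K2B and double knockdowns. NPAT fell by 0.45 to 0.77 on the log2 scale. In all, 1, 4, 4 and 3 of 25 rose and 6, 7, 10 and 9 fell in the 4 genotypes, where 8.67, 16.6, 17.5 and 19.1% of all genes rose and 9.82, 14, 15.4 and 16.1% fell. Under ribosomal protein scaling MIF4GD was called in 1 genotype, as a fall (-0.28 in the PIP4K2A knockdown). Of 46 genes for S-phase entry and DNA replication, 6, 18, 16 and 18 rose and 10, 8, 10 and 10 fell, to be read against the same shares of all genes. The G1/S phosphatase CDC25A (-1.69 to -1.16) and the transcription factor E2F3 (-2.62 to -2.11) fell in all 4, as did DBF4, E2F2, GINS3 and POLD3. CDK2, E2F1, GINS4, TK1 and TYMS rose in all 4, but under ribosomal protein scaling none of their values was a called rise and some were called falls. In that scaling 44, 45, 46 and 45 of the 47 histone genes were called, all as falls, but it also moved the median of all genes below 0. The share of all genes called in it is not reported here, so these counts are not read as particular to the histone genes. CCNE1, CCNE2, CCNA2, PCNA, H2AX and CDKN1A were not called in all 4 genotypes: CDKN1A changed by 0.07 in empty-vector cells and PCNA by 0.02. Of 22 histone chaperones, 3, 9, 8 and 9 rose and 2, 1, 3 and 2 fell. Of all genes 8.67, 16.6, 17.5 and 19.1% rose and 9.82, 14, 15.4 and 16.1% fell. NAP1L1, RBBP7 and SSRP1 rose in all 4 and the CENPA chaperone HJURP fell, though under ribosomal protein scaling all 12 values of these 3 genes were below 0 and 6 were called falls.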

How the data were processed

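The deposited tables, 1 per library, hold expected counts, TPM a mean transcript length in bases, and FPKM; per the file headers they come from RSEM (expected counts are estimates per gene, and TPM are scaled per length to the library total by the authors). The deposited FPKM values, made by the authors per kilobase and library total, were not used. STAR, SAMtools, RSEM and the build GRCh38 are named in the submitters' processing notes. Their versions, the annotation and strandedness: not given in the sources used here. Near-identical copies can exchange counts in such estimates.

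Samples were grouped by genotype and treatment from the labels. Expected counts, rounded, entered the quasi-likelihood test of edgeR 4.0.16 (R 4.3.3), fitted to 15 libraries with each group as its own term. Genes were kept by filterByExpr at a minimum count of 10, scaled by TMM and adjusted by Benjamini-Hochberg over all 22597 genes, with an adjusted p under 0.05 called. Levels are CPM of the library total without TMM factors. These factors were 1.08 to 1.15 in the untreated and 0.873 to 0.954 in the UV libraries. Falls after UV are therefore larger in CPM than in the fitted log2 changes, and a small fitted rise can be a fall in CPM. Isoform-weighted lengths were tested on log2 values with limma 3.58.1 for genes averaging 100 counts or more with at least 10 in each library. Totals were 1.28 M counts in the library set aside and 28.0 to 39.9 M in the others; class sums carry no p-value. Symbols came from the reference name table, 68 genes matching by identifier and 2 by name; positions came from GENCODE 29 on GRCh38 and promoters from RefSeq.

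The 70 genes and the other lists were chosen with earlier results of these data known, so no pattern here is independent support. Genes named were, per class, those highest per length and those with the largest and smallest UV change, the members called in all 4 UV comparisons for other lists, and 11 further genes whatever their call; HFE is an exception, and some genes of the other lists are not reported here by name. Alternatives were 16 libraries, RLE factors, ribosomal protein scaling, no filter, a filter on CPM (above 1 in 2 libraries), fits to just the groups compared, DESeq2 1.42.0, a replicate block, leaving out each library, and, added after seeing the data, summing 5 near-identical pairs. On simulated counts for UV in empty-vector cells (21405 genes, 200 drawn at any level and changed), 1.5, 2 and 4-fold changes were recovered in 10.4, 41.8 and 65.2% of the changed genes. In the data 1959 genes rose and 2219 fell, so these rates do not give the power for the histone genes. Python 3.11.15 with numpy 2.4.6, pandas 2.3.3 and scipy 1.17.1 made the tables, and matplotlib 3.10.9 the figures.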

Additional observations from a re-analysis of the deposited data

Results flagged for a closer look

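H4C7, H2BC1, H3C8 and H2BC9, each with at most 3 expected counts in any of the 15 libraries analysed, had more in the set-aside untreated empty-vector library of 1.28 M counts, which the comparisons do not use. H4C7 had 10 counts there, H2BC1 had 7, H3C8 had 6 and H2BC9 had 5. That library also had a mitochondrial share of 14.6%, and the part of this in the counts was not tested.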

How the results depend on the processing

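Replicate numbers are shared by the groups, and same-numbered libraries showed little shared deviation. Over 21 pairs of 7 groups their deviations correlated from -0.117 to 0.187 with a median of 0.0009. Whether the numbers mark a batch is not given. With the replicate number as a block, 38, 42, 42 and 41 histone genes fell after UV, 7, 7 and 3 were called untreated and 11, 15 and 3 after UV for the knockdowns, 0, 0 and 0 for the differences, 5, 12 and 4 between the knockdowns, and 6 lengths changed.

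With the set-aside library (16 libraries) the counts were 6, 3, 3 and 3 for UV, 1, 3 and 1 for knockdown untreated, 1, 3 and 1 after UV, 2, 3 and 0 between the knockdowns, and 0 for lengths; the log2 sums in empty-vector cells were -1.63 (H1), -1.98 (H2A), -1.53 (H2B), -2.02 (H3), -1.46 (H4) and -1.72 (all). Ribosomal protein scaling gave 1 (double untreated), 18 and 6 (PIP4K2A and double after UV) and 1 (PIP4K2A difference). No filter gave 27, 24 and 14 untreated, 25, 29 and 11 after UV, 13, 22 and 4 differences, and 20 and 8 for double and PIP4K2B comparisons. DESeq2 gave 14 (PIP4K2A untreated), 5 and 6 (differences) and 7 (PIP4K2B against PIP4K2A). Only the groups compared gave 22, 33 and 21 untreated, 4, 27 and 15 after UV, 13 for the PIP4K2B difference and 19 for double against PIP4K2B. These counts are given without the share of all genes called in the same fit, and the cause was not tested.

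The log2 sums were -2.31, -2.59, -2.13, -2.67, -1.98 and -2.33 (H1, H2A, H2B, H3, H4, all; empty-vector cells) with TMM factors, -3.04, -3.32, -2.86, -3.40, -2.70 and -3.06 with ribosomal protein factors, and -2.99, -3.48, -2.75, -3.53, -2.83 and -3.07 as TPM. Over all genes in the PIP4K2A, PIP4K2B and double knockdowns they were -1.66, -1.54 and -1.91 with TMM, -2.46, -2.46 and -2.76 with ribosomal protein factors and -2.24, -2.34 and -2.74 as TPM.

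Leaving out 1 library gave 37 to 38, 38 to 42, 40 to 41 and 39 to 41 falls for UV. It gave 6 to 14, 7 to 8 and 1 to 3 calls untreated, 7 to 20, 11 to 13 and 2 to 4 after UV, 0 to 14, 0 to 0 and 0 to 0 differences, 3 to 6, 9 to 10 and 1 to 5 between the knockdowns, and 5 to 7 lengths. The sums ranged from -2.68 to -2.46 (H1), -2.90 to -2.80 (H2A), -2.45 to -2.33 (H2B), -2.98 to -2.87 (H3), -2.25 to -2.22 (H4) and -2.62 to -2.56 (all), and from -2.06 to -1.75, -1.87 to -1.84 and -2.30 to -2.13 in the knockdowns. Leaving out the only untreated empty-vector library could not be fitted.

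Of single values in empty-vector cells, H3-3A, H2AZ1, H2AZ2, CDKN1A, TK1 and NAP1L1 reversed under ribosomal protein scaling, to -0.14, -0.19, -0.22, -0.65, -0.21 and -0.16. Near-identical pairs summed, added after seeing the data, gave 35, 39, 40 and 39 falls for UV of the 42 features then tested.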
